A study of Mus musculus with 12 samples.

Results

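The respiratory chain genes were taken as rows of the deposited expression table named as subunits of the 5 complexes of oxidative phosphorylation. Every gene of the mitochondrial genome was included. They were found by symbol. A row was taken when its name began with Nduf and a subunit letter and number, was Sdha, Sdhb, Sdhc or Sdhd, began with Uqcr or Atp5, was a numbered Cox subunit of the series 4 to 8, or carried the mitochondrial prefix mt-. Names with the pseudogene mark -ps were left out, and at least 1 FPKM (fragments per kilobase of transcript, scaled to the mapped fragments of the library) was required in at least 3 of the 12 libraries. Of 122 matching names, 6 were pseudogenes and 2 were too low: Cox4i2 reached 0.342 FPKM at most, and Cox7a1 passed 1 FPKM in 1 library. The 114 members that remained, of 29838 genes in the table and 12994 genes tested, comprised 77 nuclear and 37 mitochondrial genes. The nuclear members held 36 genes of complex I, 4 of complex II, 8 of complex III, 13 of complex IV and 15 of complex V. They also held Atp5s, which carries the name but is not a subunit of the enzyme. The mitochondrial members held 13 mRNAs, 2 rRNAs and 22 tRNAs. The rule used levels for this minimum and in no other way. It does not match every subunit: Cyc1 of complex III and Ndufab1 of complex I, for example, were left out. Counts, sums and ratios by complex therefore cover the matched members only.

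RNA-seq had been carried out on erythroblasts sorted from the bone marrow of wild-type C57BL/6 mice, which were untreated males aged 8 weeks. Cells carrying CD45 had been depleted. Proerythroblasts (Pro) were gated as CD44 high and Ter119 low, and basophilic (Baso), polychromatic (Poly) and orthochromatic (Ortho) erythroblasts were gated within the Ter119 positive cells by falling CD44 and forward scatter. There were 3 libraries for each of the 4 stages, and the study used them to follow gene expression through terminal erythroid differentiation. Ortho replicates 2 and 3 carried only the general word for erythroblasts as their cell type, so their stage was taken from their titles. The labels did not say whether the replicates came from separate animals, so the p-values measure the spread between these libraries, which may be technical.

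Mitochondria make ATP for the growing erythroblast and also house the enzymes that begin and end heme synthesis. Complex I (NADH dehydrogenase) and complex II (succinate dehydrogenase) pass electrons to ubiquinone, complex III hands them to cytochrome c, complex IV (cytochrome c oxidase) gives them to oxygen, and complex V (ATP synthase) uses the proton gradient to make ATP. Complexes I, III, IV and V are built from subunits of both genomes, while complex II is wholly nuclear. The mitochondrial genome is transcribed from both strands into long precursors that are then cut at the tRNAs, and a maturing reticulocyte later clears its mitochondria.

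The promoters of nuclear respiratory genes are known for sites of the factors NRF1, GABP (also NRF2) and YY1. RefSeq promoter sequences (build GRCm38.p6, which is mm10), from 250 bases before the start site to 50 after it, were matched for 63 of the 77 nuclear members and searched on both strands for GCGCANGCG (NRF1), CCGGAAG (GABP) and AANATGGC (YY1). The NRF1 letters stood in 20 of the 63 members, or 31.7%, against 7.03% of 27025 genes with a promoter of that length. GABP letters stood in 16 members, or 25.4% against 9.93%, and YY1 letters in 16, or 25.4% against 6.96%. At least 1 of the 3 stood in 42 members, or 66.7% against 20.8%. The background shares cover every gene with such a promoter, tested here or not. None was taken over the tested genes alone, so expressed genes as such may differ from this background. Members could hold more than 1 motif, and an NRF1 run of GCGCATGCGC reads the same on both strands. Below are 6 of these promoters, each from 150 bases before the start site to 30 after it on the gene's own strand, chosen to show each of the 3 motifs in members that fell from Pro to Ortho and a member that fell with none of them. Capitals mark the motif letters, in either orientation.
Sdha, chr13:74350211-74350390, minus strand: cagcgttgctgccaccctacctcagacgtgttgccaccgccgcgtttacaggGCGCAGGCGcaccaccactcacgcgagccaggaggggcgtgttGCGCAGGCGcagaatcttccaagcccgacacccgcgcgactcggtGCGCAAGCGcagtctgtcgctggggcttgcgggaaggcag
Sdhd, chr9:50603820-50603999, minus strand: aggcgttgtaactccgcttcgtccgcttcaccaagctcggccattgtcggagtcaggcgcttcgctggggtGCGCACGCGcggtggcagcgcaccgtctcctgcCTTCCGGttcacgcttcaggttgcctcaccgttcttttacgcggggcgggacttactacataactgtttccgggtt
Uqcr11, chr10:80406792-80406971, minus strand: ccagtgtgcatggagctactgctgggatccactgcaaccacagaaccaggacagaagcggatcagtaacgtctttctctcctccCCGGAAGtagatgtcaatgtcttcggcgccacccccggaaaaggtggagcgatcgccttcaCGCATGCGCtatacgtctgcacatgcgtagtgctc
Cox6a1, chr5:115348929-115349108, minus strand: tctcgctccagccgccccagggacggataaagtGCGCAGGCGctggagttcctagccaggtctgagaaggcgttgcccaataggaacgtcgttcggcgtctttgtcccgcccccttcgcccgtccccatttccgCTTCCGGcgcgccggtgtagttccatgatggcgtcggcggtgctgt
Atp5b, chr10:128083157-128083336, plus strand: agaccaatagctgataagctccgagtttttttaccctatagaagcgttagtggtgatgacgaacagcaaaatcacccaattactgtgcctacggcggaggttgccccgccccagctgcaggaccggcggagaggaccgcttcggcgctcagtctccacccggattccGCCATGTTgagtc
Ndufv1, chr19:4012726-4012905, minus strand: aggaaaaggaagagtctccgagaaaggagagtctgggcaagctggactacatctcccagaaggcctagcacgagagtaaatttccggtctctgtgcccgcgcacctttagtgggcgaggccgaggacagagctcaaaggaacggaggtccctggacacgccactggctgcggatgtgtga
Sdha held 3 NRF1 matches, Sdhd and Uqcr11 1 NRF1 and 1 GABP match each, and Atp5b 1 YY1 match. Cox6a1 showed 1 NRF1 and 1 GABP match in this window and further NRF1 letters upstream of it, while Ndufv1 had none in its 300 bases. A match is a run of letters and not evidence of binding. From Pro to Ortho the median log2 fold change was -1.22 over the 42 with a match and -1.25 over the 21 without.

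Several features of the libraries bear on every value below. The table held FPKM only, so the number of reads behind a value was unknown. Hemoglobin genes took 6.98% to 10.7% of the summed FPKM in Pro and 47.2% to 52.6% in Ortho, which lowers the share left for all other genes. Markers of other marrow cells also differed between the stages: 10 neutrophil genes summed to 7620 to 9300 FPKM in Pro and 14724 to 18392 in Ortho, all 10 above 1 FPKM, while the T-cell genes Cd3d, Cd3e and Cd3g and the macrophage genes C1qb and C1qc stayed under 1 FPKM in all libraries. Summed in Pro and in Ortho, the B-cell list stood at 53.9 to 88.7 and 140.3 to 178 FPKM, the macrophage list at 29.2 to 35.0 and 62.0 to 73.2, the T and NK-cell list at 21.8 to 31.3 and 37.7 to 42.5 and the megakaryocyte list at 71.5 to 129 and 38.9 to 47.8. Nkg7 alone stood at 20.2 to 27.3 FPKM in Pro and 31.6 to 37.4 in Ortho, so it made up most of the T and NK-cell sum. Itga2b of the megakaryocyte list went the other way, from 16.6 to 21.7 in Pro to 24.0 to 26.2 in Ortho. Vcam1 of the macrophage list leaned lower, at 2.34 to 3.52 in Pro and 1.78 to 2.92 in Ortho. The part of these cells in the results was not tested. The late erythroid markers were higher in Ortho, as the labels imply (20133 to 31567 FPKM summed in Pro, 168682 to 201608 in Ortho). The 5 early markers, by contrast, summed to 115.3 to 143.9 FPKM in Pro and 147.1 to 165.5 in Ortho, with genes going both ways. Kit (15.3 to 21.6 FPKM in Pro, 12.6 to 17.6 in Ortho) overlapped between the ends. So did Myc (28.8 to 42.1 in Pro, 15.98 to 29.5 in Ortho), and both leaned lower in Ortho. Myb was higher in Ortho (69.6 to 78.0) than in Pro (47.5 to 62.5). So were Gata2 (22.1 to 31.6 against 10.9 to 14.6) and Cd34 (16.5 to 16.9 against 7.88 to 9.90). Cd44, the surface protein of the gate, was also higher in Ortho, at 48.3 to 64.8 against 29.0 to 40.3 FPKM. Ptprc, the gene of CD45, by which cells had been depleted, stood at 50.5 to 63.9 against 23.6 to 30.3. Ly6g stood at 40.9 to 49.3 against 20.8 to 22.2. Itgam had separate entries, at 22.8 to 53.4 against 14.2 to 27.7 and at 25.8 to 34.0 against 4.31 to 13.6. Tfrc overlapped, at 321 to 345 against 283 to 375. Pro replicate 1 stood apart for the mitochondrial genome: it was the lowest Pro library for 13 of 13 mitochondrial mRNAs, at a median of 0.497 times the mean of the other 2, while nuclear members stood at a median of 1.11 times.

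In summed FPKM the nuclear subunit genes fell from stage to stage, and most of the fall came between Pro and Baso. Their summed level was 11088, 9407 and 10176 FPKM in the 3 Pro libraries, 5712, 6313 and 6189 in Baso, 4981, 4915 and 4964 in Poly and 4447, 4342 and 4387 in Ortho. No library of one stage overlapped with those of the next. As a share of the summed FPKM without hemoglobin genes, the sum was 2.00% to 2.38% in Pro, 1.52% to 1.65% in Baso, 1.32% to 1.34% in Poly and 1.29% to 1.33% in Ortho, so Poly and Ortho overlapped on that scale. By gene, 76 of the 77 nuclear members had their highest mean in Pro, 59 their lowest in Ortho, and 56 had a lower mean at every step. Since these are bulk samples, fewer cells with a transcript and less of it per cell cannot be told apart.

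**Figure D1:**
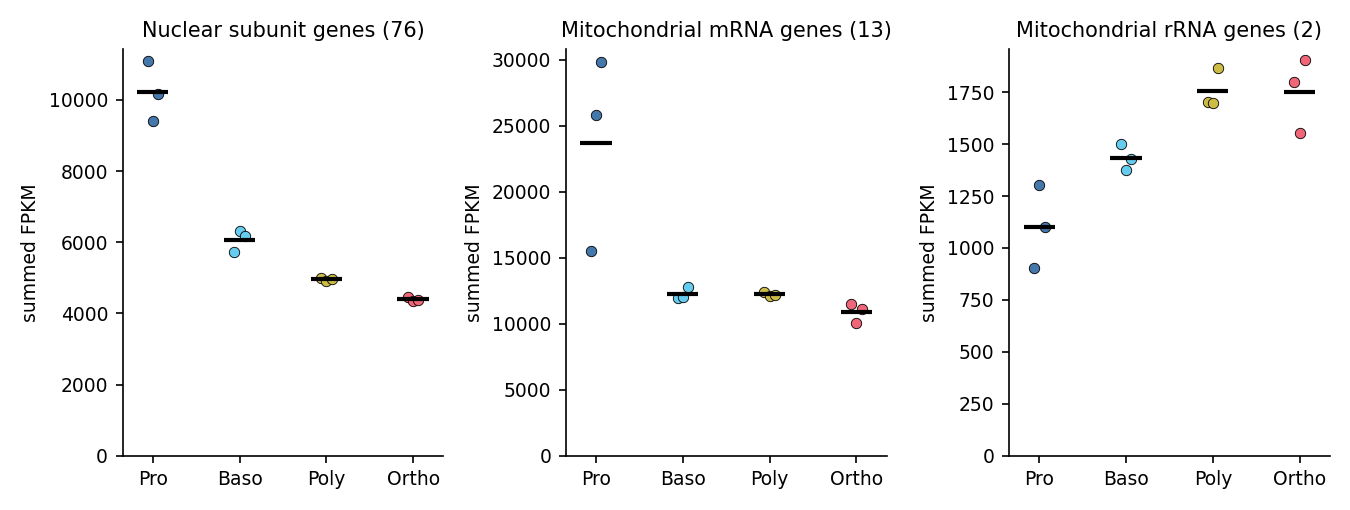
Summed FPKM of the nuclear subunit genes, the mitochondrial mRNA genes and the mitochondrial rRNA genes in each library (points), with the mean of each stage (bars, n = 3 libraries). The nuclear sum fell without overlap at each step, the mRNA sum fell after Pro with Pro replicate 1 far below the other 2, and the rRNA sum was lowest in Pro.

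From Pro to Ortho, which brackets terminal differentiation, the nuclear genes fell by more than the typical gene. Of the 77, 73 were lower at an adjusted p under 0.05 (limma on log2(FPKM + 1), Benjamini-Hochberg over 12994 genes), against 53.2% of all genes tested, and 1 was higher, against 22.7%. With a change of at least 1 in size on the log2 scale required as well, 49 were called lower, against 23.8% of all genes, and Cox6a2 alone was called higher, against 6.33%. Their median log2 fold change was -1.21, beside -0.425 over all genes. In 72 of the 77 every Ortho library lay below every Pro library, against 53.6% of all genes, and in Cox6a2 every one lay above, against 23.2%. The all-gene median depends on how the libraries are scaled. Scaled without hemoglobin genes it was -0.03 and that of the nuclear members -0.72, and relative to all genes the nuclear median lay at -0.78 in the deposited scale and between -0.69 and -0.84 under 4 other scalings. The number of nuclear members called lower was 49 in the deposited scale, 68 with libraries scaled to the same sum, 11 without hemoglobin genes, 12 without hemoglobin and mitochondrial genes and 18 centred on the library median. The share of all genes called was not counted under the other scalings.

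The single steps divided this fall unevenly. From Pro to Baso, 71 nuclear members were lower at an adjusted p under 0.05, against 42.1% of all genes, and 10 were called lower with the fold required, against 8.54%. The 10 became 19 without Pro replicate 2, 17 without Baso replicate 2, 4 with a pseudocount of 5, 35 with libraries scaled to the same sum, and 0 scaled without hemoglobin genes, without hemoglobin and mitochondrial genes, or centred on the library median, while 54 to 58 still passed lower under the last 3. None was called higher, against 1.82% of all genes, and none had every Baso library above every Pro library, against 16.8%. The median log2 fold change was -0.73, beside -0.23 over all genes. In 68 of the 77 every Baso library lay below every Pro library, against 44.2% of all genes. From Baso to Poly the median was -0.26 beside 0.03, 13 nuclear members passed the test lower, against 5.77% of all genes, and none was called with the fold required, against 0.454% of all genes lower and 0.0616% higher. From Poly to Ortho the median was -0.16 beside -0.08, and 12 passed lower, or 15.6%, below the 21.7% of all genes. None was called, against 4.81% lower and 1.05% higher. Scaled without hemoglobin genes, the nuclear median at this step was -0.02 beside 0.04 over all genes. Centred on the library median it was -0.01 beside 0.07, and with libraries scaled to the same sum -0.35 beside -0.23. In the fit of all 12 libraries with no block, no nuclear member passed higher at either step, against 6.58% and 4.43% of all genes. At an unadjusted p under 0.05, 47 nuclear members differed between Baso and Poly and 26 between Poly and Ortho, in either direction. The share of all genes at that level was not counted, so these numbers cannot be set against a background. Every Poly library lay below every Baso library in 53 of the 77, against 15.9% of all genes, and every Ortho library below every Poly library in 35, against 31.3%. These later counts moved in both directions with the libraries, scaling and spread estimate of the fit. The shares of all genes were counted only in the fit of all 12 libraries in the deposited scale. Counts under other fits and scalings in this paragraph therefore have no background. The replicate numbers were taken to pair the Baso, Poly and Ortho libraries. With the replicate block on these 3 stages, 38 nuclear members passed lower from Baso to Poly. At that step 1 member, Cox6a2, passed higher (log2 fold change 0.55, adjusted p = 0.0312 by limma). From Poly to Ortho 24 passed lower. Without the block, the same 3 stages gave 35 lower and 1 higher, and 22 lower. The block on all 12 libraries gave 11 lower and 1 higher from Baso to Poly. With 1 library left out of the fit of all stages, the first count ran from 3, without Baso replicate 2 or 3 or Poly replicate 1 or 2, to 33 without Pro replicate 1, being 20 without Pro replicate 2, 5 without Poly replicate 3, and 8 without any 1 of the Ortho libraries. The second ran from 6 without Poly replicate 1 to 21 without Pro replicate 1, being 7 without Ortho replicate 2. The scaling moved them too: the first was 7 with libraries scaled to the same sum or without hemoglobin genes and 31 centred on the library median, and the second was 41 with the same sum and 5 without hemoglobin genes. The first was 5 with no variance trend or no filter on low values, and the counts were 27 and 24 with only the compared stages fitted. The member that passed higher from Baso to Poly in the fits with the block, in the last 3 stages alone and without Pro replicate 3 was Cox6a2 each time. Cox7b passed higher from Poly to Ortho under the 3 scalings other than the same sum, with an adjusted p of 0.0412 by limma without hemoglobin genes.

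Complex I, the largest of the 5, fell in nearly every nuclear member. From Pro to Ortho 35 of 36 passed the test lower, against 53.2% of all genes, and 21 were called, against 23.8%, with a median log2 fold change of -1.14. The 7 core subunits, which carry the flavin and the iron-sulfur clusters, had a median of -1.62 with 5 called. The 29 accessory subunits had a median of -1.09 with 16 called. Ndufv1, the core subunit that binds FMN and oxidizes NADH (chr19:4007384-4012806), fell the most. Its level was 110.1, 80.1 and 81.5 FPKM in Pro, 39.6, 48.6 and 45.7 in Baso, 35.5, 34.8 and 36.6 in Poly and 25.1, 21.2 and 21.1 in Ortho, with log2 fold change -1.95 ± 0.12 (SE), adjusted p = 8.59e-08. No stage overlapped with the next, and it was also lower in Ortho than in Poly (log2 fold change -0.65 ± 0.12 (SE), adjusted p = 0.00186). Ndufa5, an accessory subunit of the arm that reaches into the matrix, fell from 57.4, 38.8 and 38.5 FPKM in Pro to 9.50, 14.5 and 12.5 in Ortho (log2 fold change -1.80 ± 0.17 (SE), adjusted p = 1.81e-06). Ndufb9, an accessory subunit of the membrane arm and the most abundant nuclear member of the complex by mean FPKM, fell at each step. It read 196, 164 and 171 FPKM in Pro, 124, 126 and 127 in Baso, 87.3, 89.6 and 87.2 in Poly and 65.5, 61.8 and 67.4 in Ortho, and each of the 3 steps passed the test, with -0.48, -0.51 and -0.44.

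The smallest changes in complex I belonged to accessory subunits. Ndufb11, an X-linked subunit of the membrane arm, went from 106, 97.5 and 99.6 FPKM in Pro to 76.5, 76.8 and 75.7 in Ortho, with log2 fold change -0.40 ± 0.06 (SE), adjusted p = 0.000118, and its Baso, Poly and Ortho libraries spanned only 75.7 to 86.2 FPKM. Scaled without hemoglobin genes, its log2 fold change was 0.09. Ndufa12 did not pass the test (log2 fold change -0.15 ± 0.39 (SE), adjusted p = 0.737). Its replicates were far apart in Pro, Baso and Poly and closer in Ortho, at 22.5, 37.8 and 52.8 FPKM in Pro, 17.2, 18.1 and 43.9 in Baso, 30.1, 33.9 and 15.2 in Poly and 27.3, 34.3 and 34.9 in Ortho, so the stages overlapped. Ndufa4, long counted with complex I and now known as a subunit of complex IV, fell from 101, 190.4 and 143 FPKM in Pro to 83.2, 52.6 and 63.9 in Ortho (log2 fold change -1.09 ± 0.23 (SE), adjusted p = 0.00099).

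Complex II fell as a unit and did so early. All 4 subunits were called lower from Pro to Ortho, against 23.8% of all genes, with log2 fold changes within -1.17 to -1.24. Sdha, the flavoprotein that oxidizes succinate (chr13:74322254-74350280), read 124, 103 and 111 FPKM in Pro, 58.4, 63.0 and 67.3 in Baso, 54.7, 55.0 and 52.9 in Poly and 46.7, 46.3 and 48.0 in Ortho, without overlap between Pro and any later library (log2 fold change -1.24 ± 0.08 (SE), adjusted p = 7.69e-08). Sdhb, the iron-sulfur subunit, fell from 109.9, 84.1 and 90.3 FPKM in Pro to 41.0, 44.2 and 49.0 in Baso (log2 fold change -1.06 ± 0.10 (SE), adjusted p = 6.55e-06). It then stayed between 38.5 and 41.8 FPKM in Poly and Ortho, where neither step passed the test. Sdhc and Sdhd, the membrane anchors, had log2 fold changes of -0.96 and -1.02 from Pro to Baso and of -1.17 and -1.21 over the whole course. No complex II gene passed the test from Baso to Poly or from Poly to Ortho.

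All 8 nuclear members of complex III, which do not include Cyc1, passed the test lower from Pro to Ortho, against 53.2% of all genes. Of these, 6 were called, against 23.8%, with a median of -1.26. Uqcr11, a small membrane subunit, fell the most and in 2 steps. It read 170.3, 157 and 203 FPKM in Pro, 86.9, 91.3 and 85.9 in Baso, 53.4, 57.7 and 71.4 in Poly and 47.0, 51.5 and 55.3 in Ortho, where Poly and Ortho overlapped (log2 fold change -1.76 ± 0.12 (SE), adjusted p = 1.27e-07). The step from Baso to Poly also passed (log2 fold change -0.54 ± 0.12 (SE), adjusted p = 0.0175). Uqcrc1, a core protein of the complex, fell from 159.8, 146 and 162 FPKM to 60.6, 60.4 and 60.9 (log2 fold change -1.35 ± 0.09 (SE), adjusted p = 8.42e-08), and its 3 Ortho libraries hardly differed. Uqcrq, a small membrane subunit, fell by 0.95 on the log2 scale. Uqcrh, the acidic hinge protein near cytochrome c, was least changed and least even. Its level was 217, 125 and 144 FPKM in Pro, 84.7, 99.1 and 133 in Baso, 67.2, 66.4 and 77.3 in Poly and 101, 96.9 and 74.4 in Ortho, so that its mean was lowest in Poly (log2 fold change -0.80 ± 0.21 (SE), adjusted p = 0.00434).

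Complex IV held both ends of the range. Of its 13 nuclear genes 12 passed the test lower from Pro to Ortho, against 53.2% of all genes, 8 were called lower, against 23.8%, and 1 was called higher, against 6.33%, with a median of -1.17. Cox4i1, the widely expressed form of the largest nuclear subunit, read 397, 331 and 337 FPKM in Pro, 224, 236 and 222 in Baso, 189.7, 181 and 179 in Poly and 159.9, 154 and 163 in Ortho and did not overlap between any neighbouring stages (log2 fold change -1.15 ± 0.08 (SE), adjusted p = 1.11e-07). Its partner form Cox4i2, which other tissues use under low oxygen, was not above 0.342 FPKM in any library. Cox6a1 was the most abundant nuclear gene of the complex, at 699, 467 and 484 FPKM in Pro and 184, 178 and 189 in Ortho (log2 fold change -1.55 ± 0.13 (SE), adjusted p = 7.52e-07). Cox7a2l was lower in Baso than in Pro (log2 fold change -0.54 ± 0.07 (SE), adjusted p = 3.76e-05). It was then flat, within 75.5 to 81.6 FPKM in the 9 later libraries. Cox7b fell from 71.3, 84.7 and 106 FPKM in Pro to 48.7, 46.0 and 43.1 in Baso and read 45.8, 44.4 and 49.4 in Ortho.

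Complex V fell from Pro to Ortho in 13 of its 15 nuclear genes by the test, against 53.2% of all genes, with 10 called, against 23.8%, and a median of -1.29. Atp5b, the catalytic beta subunit and the most abundant nuclear member of all by mean FPKM (chr10:128083273-128090391), read 863, 686 and 741 FPKM in Pro, 399, 423 and 398 in Baso, 325, 344 and 341 in Poly and 307, 273 and 279 in Ortho. It fell without overlap at each step (log2 fold change -1.41 ± 0.09 (SE), adjusted p = 7.82e-08). The 2 genes that did not pass were Atp5j and Atp5g2. Atp5j, coupling factor 6 of the peripheral stalk, stood at 57.2, 66.6 and 76.2 FPKM in Pro and 67.8, 57.0 and 51.2 in Ortho, with the stages overlapping throughout (log2 fold change -0.18 ± 0.15 (SE), adjusted p = 0.293). Its log2 fold change was 0.30 when libraries were scaled without hemoglobin genes. Atp5s, which is no subunit, fell from 8.83, 9.25 and 9.77 FPKM to 4.51, 4.62 and 4.59.

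**Figure D2:**
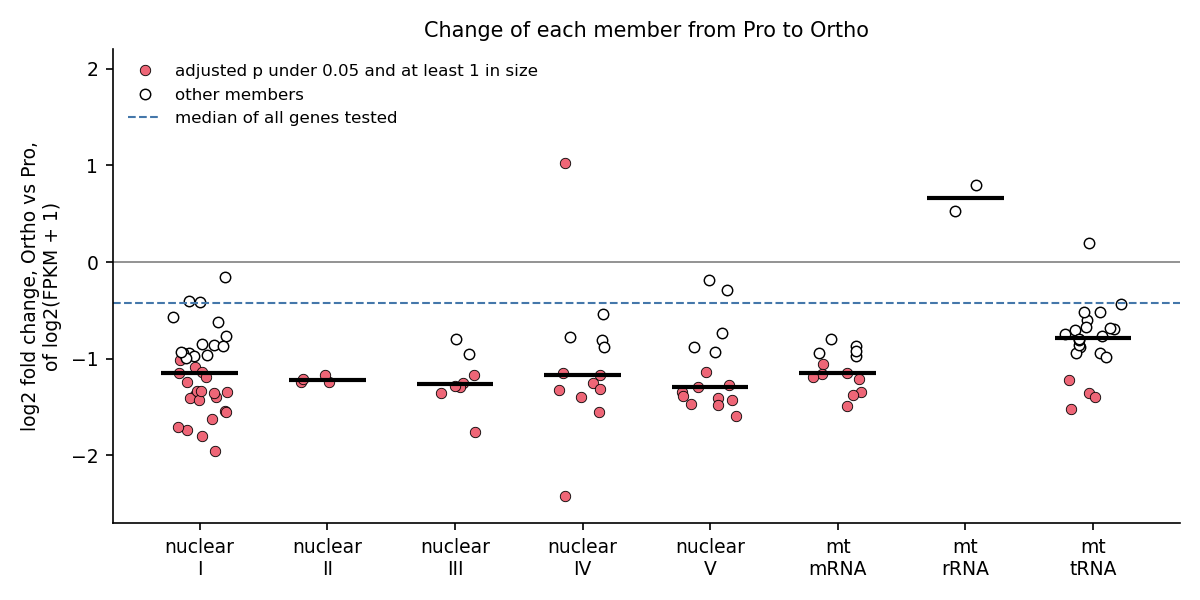
Log2 fold change from Pro to Ortho (difference of mean log2(FPKM + 1), 3 libraries a stage) of each member, by complex for nuclear genes and by RNA class for mitochondrial (mt) genes; Atp5s is not drawn. Filled points passed an adjusted p of 0.05 with a change of at least 1, bars are group medians, and the dashed line is the median of all genes tested at -0.425; Cox6a2 and the 2 rRNAs stand well above the rest.

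Where a subunit has more than 1 gene, the balance between the genes differed between stages as well; the shares below were not tested. Cox6a2, the heart and skeletal muscle form of COX6A (chr7:128205435-128206387), was low throughout but rose against the trend. It read 4.22, 4.74 and 2.63 FPKM in Pro, 3.47, 5.34 and 3.76 in Baso, 7.23, 7.39 and 5.08 in Poly and 9.33, 8.57 and 8.26 in Ortho, with every Ortho library above every earlier one (log2 fold change 1.02 ± 0.19 (SE), adjusted p = 0.00045). As Cox6a1 fell, the share of Cox6a2 in the pair went from 0.541% to 1.004% in Pro to 4.19% to 4.83% in Ortho, a share that no scaling of the libraries can alter. The call for Cox6a2 was lost when Pro replicate 3 or Ortho replicate 1 was left out, with a pseudocount of 5, or with libraries scaled to the same sum. Its log2 fold change lay between 0.64 and 1.43 over the alternatives run and passed the adjusted p in each.

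Cox6b2, known as the testis form of COX6B (chr7:4751792-4753094), was the member that fell the most. It read 120.1, 108 and 116 FPKM in Pro, 42.7, 56.4 and 69.3 in Baso, 27.0, 26.4 and 31.0 in Poly and 15.2, 21.8 and 26.4 in Ortho (log2 fold change -2.42 ± 0.19 (SE), adjusted p = 4.58e-07). Pro, Baso and Poly were fully apart from each other, and Ortho replicate 3 came to the level of the lowest Poly library. Its share of the Cox6b pair went from 31.7% to 37.5% in Pro to 15.8% to 23.1% in Ortho, while Cox6b1, the widely expressed form, fell by 1.31 on the log2 scale.

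The 3 Atp5g genes encode the same mature c subunit of the ATP synthase ring with different import sequences. Atp5g3 fell from 347, 273 and 295 FPKM in Pro to 96.8, 104 and 98.3 in Ortho (log2 fold change -1.60 ± 0.09 (SE), adjusted p = 3.9e-08), and Atp5g1 from 62.4, 67.3 and 111 to 26.7, 31.2 and 24.2 (log2 fold change -1.48 ± 0.18 (SE), adjusted p = 1.56e-05). Atp5g2 read 62.6, 149 and 166 FPKM in Pro, where replicate 1 was again far below the other 2, and 94.8, 98.8 and 90.1 in Ortho (log2 fold change -0.29 ± 0.27 (SE), adjusted p = 0.352). Without Pro replicate 1 it passed the test, with a log2 fold change of -0.73 and an adjusted p of 3.81e-05 by limma. Atp5g2 made up 29.0% and 30.4% of the 3 genes in Pro replicates 3 and 2, 13.3% in replicate 1, and 42.2% to 43.4% in Ortho. Atp5g3 went from 51.6% to 73.5% in Pro to 44.3% to 46.2% in Ortho. How the counting treated reads shared between these near-identical coding parts is not given in the sources used here, so the split among them is uncertain.

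**Figure D3:**
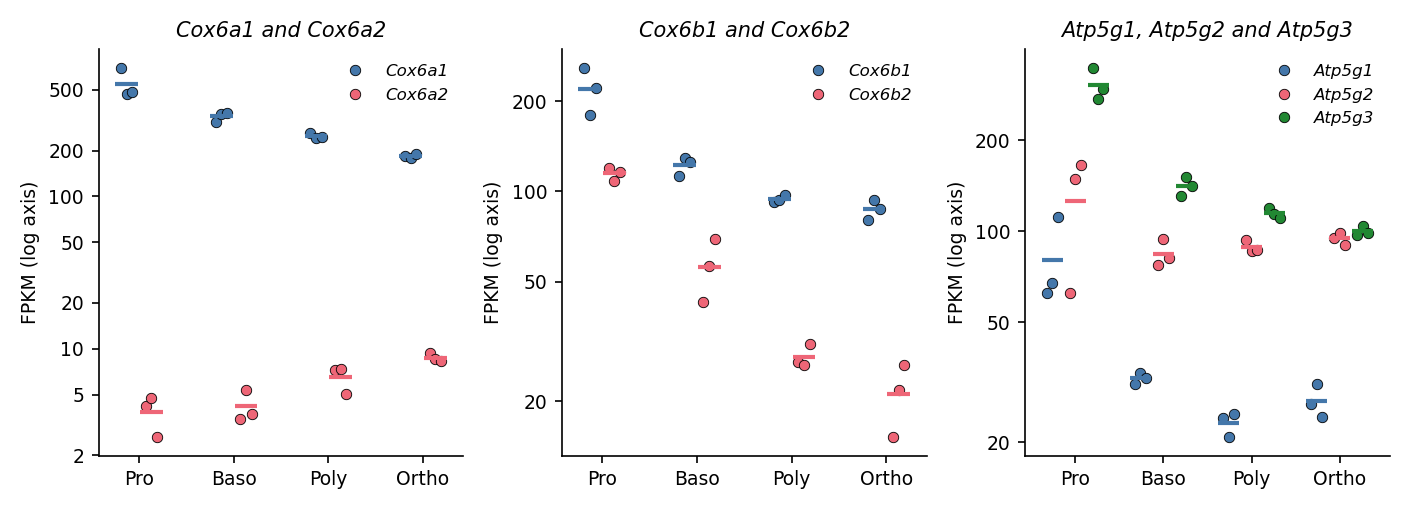
FPKM of the Cox6a, Cox6b and Atp5g genes in each library (points; log axis) with the mean of each stage (bars, n = 3 libraries). Cox6a2 climbed to 8.26 to 9.33 FPKM in Ortho while Cox6a1 fell, Cox6b2 fell more steeply than Cox6b1, and Atp5g2 and Atp5g3 met at about the same level in Ortho.

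The mitochondrial mRNAs fell between Pro and Baso, and neither later step passed the test for any of them. Their summed level was 15539, 25847 and 29818 FPKM in Pro, 11968, 12023 and 12769 in Baso, 12415, 12089 and 12208 in Poly and 11501, 10085 and 11093 in Ortho. Pro replicate 1 lay much nearer to the later stages than to the other Pro libraries. All 13 passed the test lower from Pro to Baso, against 42.1% of all genes, and 5 were called, against 8.54%; 10 had every Baso library below every Pro library, against 44.2%. From Baso to Poly and from Poly to Ortho none passed, also at an unadjusted p under 0.05, with medians of -0.01 and -0.14. Every Ortho library nevertheless lay below every Poly library in 10 of the 13, against 31.3% of all genes. With Baso, Poly and Ortho fitted alone under the replicate block, 3 of the 13 passed lower from Poly to Ortho. From Pro to Ortho all 13 passed lower, against 53.2% of all genes, and 8 were called, against 23.8%, with a median of -1.15. With libraries scaled to the same sum all 13 were called, scaled without hemoglobin genes 9 passed and 0 were called, and centred on the library median 10 passed and 1 was called. From Pro to Baso the number called was 9, 1 and 2 under these 3 scalings. Without Pro replicate 1, 12 were called from Pro to Baso and all 13 from Pro to Ortho. Without Pro replicate 3, those counts were 3 and 4. The shares of all genes under these alternatives were not counted. As a share of the summed FPKM without hemoglobin genes, mitochondrial mRNA was 3.33%, 5.50% and 6.12% in Pro and 3.08% to 3.32% in all 9 later libraries.

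The 4 mitochondrial mRNAs with the lowest fold changes, mt-Nd1, mt-Nd6, mt-Nd2 and mt-Nd4, all encode complex I subunits, although complexes were not tested against each other. mt-Nd1, a core subunit of the membrane arm, read 1332, 1984 and 2484 FPKM in Pro, 700.5, 723 and 730.1 in Baso, 721, 714 and 695 in Poly and 681, 654 and 668 in Ortho, with each Pro library above all others (log2 fold change -1.49 ± 0.17 (SE), adjusted p = 8.42e-06). mt-Nd6 is the lone mRNA encoded on the other strand. There Pro replicate 1 hardly stood apart, at 879, 880.2 and 997 FPKM in Pro and 373, 329 and 358 in Ortho, and the change was the most precise of the 13 (log2 fold change -1.38 ± 0.08 (SE), adjusted p = 4.29e-08). mt-Nd3 showed the opposite. It read 135, 365 and 495 FPKM in Pro and 169, 152 and 157 in Ortho, so that Pro replicate 1 lay below every Ortho library (log2 fold change -0.87 ± 0.34 (SE), adjusted p = 0.0365). The test was passed neither without Pro replicate 2 (adjusted p = 0.12 by limma) nor without Pro replicate 3 (adjusted p = 0.167). The remaining complex I mRNAs, mt-Nd2, mt-Nd4, mt-Nd4l and mt-Nd5, had log2 fold changes of -1.06 to -1.35 from Pro to Ortho.

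mt-Cytb, the mitochondrial subunit of complex III, read 1099, 1992 and 2432 FPKM in Pro and 842, 731 and 782 in Ortho (log2 fold change -1.15 ± 0.22 (SE), adjusted p = 0.000467). The catalytic subunit of complex IV, mt-Co1, was the most abundant member of either genome. It stood at 4005, 6342 and 6821 FPKM in Pro, 3307, 3256 and 3574 in Baso, 3450.2, 3288 and 3441 in Poly and 3047, 2555 and 2942 in Ortho (log2 fold change -0.97 ± 0.17 (SE), adjusted p = 0.00028). mt-Co2, which takes electrons from cytochrome c, went from 2204, 2868 and 3141 to 1258, 1089 and 1216 FPKM (log2 fold change -1.19 ± 0.12 (SE), adjusted p = 3.03e-06). mt-Co3 fell by 0.92, and the ATP synthase subunits mt-Atp6 and mt-Atp8 by 0.94 and 0.79, on the log2 scale. mt-Atp8 overlaps mt-Atp6 and mt-Nd4l overlaps mt-Nd4 in the genome, and the nucleus holds copies of mitochondrial DNA, so reads of these genes may be shared. Whether reads were counted by strand is not given in the sources used here, so reads of mt-Nd6 and of transcripts opposite to it cannot be told apart.

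The 2 mitochondrial rRNAs went the other way. mt-Rnr1, the small-subunit rRNA, read 391, 639.7 and 516 FPKM in Pro, 671, 662 and 669 in Baso, 746, 788 and 845 in Poly and 735, 668 and 791 in Ortho (log2 fold change 0.53 ± 0.14 (SE), adjusted p = 0.00574). mt-Rnr2, the large-subunit rRNA, read 513, 662 and 586 in Pro, 830.5, 714 and 760.5 in Baso, 959, 909.7 and 1019.9 in Poly and 1062, 883 and 1115 in Ortho (log2 fold change 0.80 ± 0.12 (SE), adjusted p = 6.21e-05). Both rose from Pro to Baso by the test, against 14.9% of all genes, and neither passed at the later steps. Every Ortho library was above every Pro library for both, against 23.2% of all genes. With libraries scaled to the same sum, mt-Rnr1 no longer passed (log2 fold change 0.16, adjusted p = 0.311 by limma). The ratio of summed rRNA to summed mRNA, which no scaling of a library changes, was 0.0582, 0.0504 and 0.0370 in Pro, 0.125, 0.114 and 0.112 in Baso, 0.137, 0.140 and 0.153 in Poly and 0.156, 0.154 and 0.172 in Ortho. It rose at each step without overlap, Pro replicate 1 included. Of 3 libraries against 3, an exact permutation test cannot give a two-sided p under 0.1, so this order was not tested. How rRNA was handled in the libraries is not given in the sources used here, so these values may cover only a part of the rRNA.

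**Figure D4:**
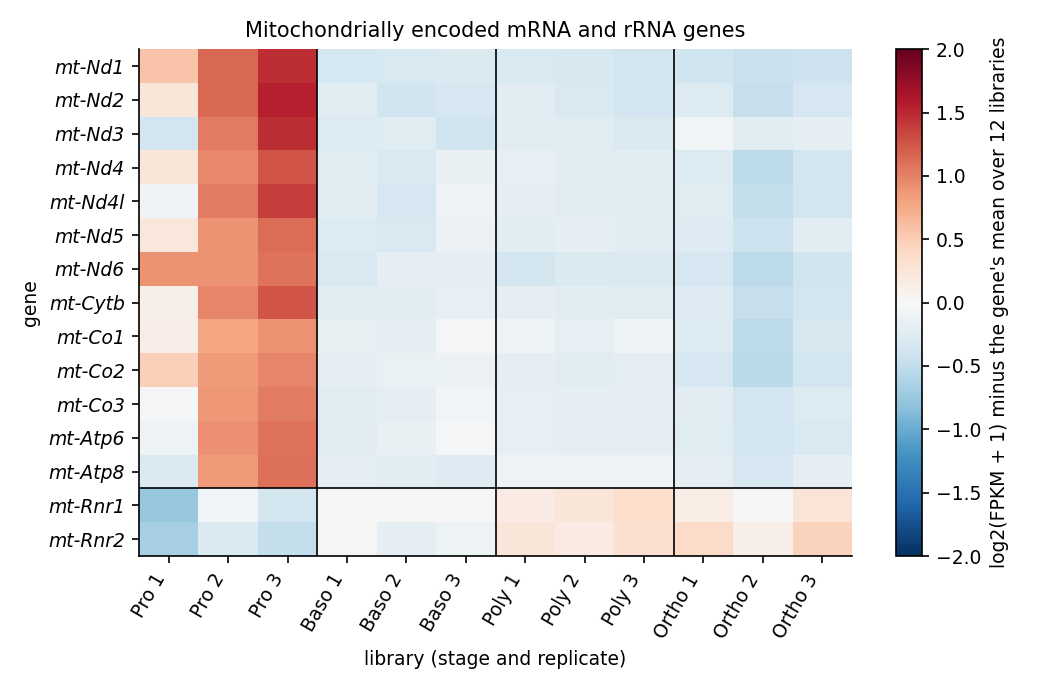
Level of the 13 mitochondrial mRNA genes and 2 rRNA genes in each library, as log2(FPKM + 1) minus the mean of the gene over the 12 libraries (color scale from -2 to 2). Pro replicates 2 and 3 are high for all mRNAs, Pro replicate 1 is intermediate or low except for mt-Nd6, and the rRNAs are lowest in Pro.

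Of the 22 mitochondrial tRNAs, 12 passed the test lower from Pro to Baso with 9 called, against 42.1% and 8.54% of all genes, and the median was -0.99. From Pro to Ortho 13 of the 22 passed lower and 4 were called, or 59.1% and 18.2%, near 53.2% of all genes for the former and below 23.8% for the latter, with a median of -0.78. From Baso to Poly only mt-Tg passed, higher, and from Poly to Ortho only mt-Tt, also higher. mt-Tg, the glycine tRNA, read 36.2, 26.5 and 29.9 FPKM in Pro, 7.12, 7.22 and 7.38 in Baso, 14.9, 9.54 and 10.9 in Poly and 12.4, 9.68 and 8.43 in Ortho. mt-Te, the glutamate tRNA, had the highest mean of the class at 104, 265 and 368 FPKM in Pro and 139, 101 and 115 in Ortho. mt-Ts2 read 0.205, 0.429 and 25.3 FPKM in Pro and was erratic in Poly and Ortho too. A tRNA is shorter than a sequenced fragment, so these values may include reads of precursors or of neighbouring genes and are uncertain.

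Mitochondrial mRNA was lower relative to nuclear mRNA in Baso than in Poly and Ortho. The ratio of summed mitochondrial mRNA to summed nuclear subunit FPKM was 1.40, 2.75 and 2.93 in Pro, 2.10, 1.90 and 2.06 in Baso, 2.49, 2.46 and 2.46 in Poly and 2.59, 2.32 and 2.53 in Ortho. Every Poly and Ortho library lay above every Baso library, while Pro spanned the whole range because of replicate 1. The same step from Baso to Poly was seen in each complex with both genomes. In complex I the ratio was 1.75, 1.56 and 1.70 in Baso and 2.01, 1.98 and 1.93 in Poly. In complex III it was 1.63, 1.42 and 1.43 in Baso and 1.91, 1.91 and 1.78 in Poly. In complex V it was 1.37, 1.26 and 1.36 in Baso and 1.68, 1.70 and 1.67 in Poly. Complex IV was the complex with the most mitochondrial mRNA per nuclear mRNA, at 3.69, 3.42 and 3.72 in Baso and 4.45, 4.37 and 4.53 in Poly. In each of the 4 no Poly library overlapped with Baso, and Poly and Ortho overlapped in complexes I, III, IV and V. With the median gene of each genome in place of the sum, the ratio was again lowest in Baso among the last 3 stages (11.3 to 12.2) and stood at 13.8 to 14.1 in Poly and 14.2 to 14.5 in Ortho.

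**Figure D5:**
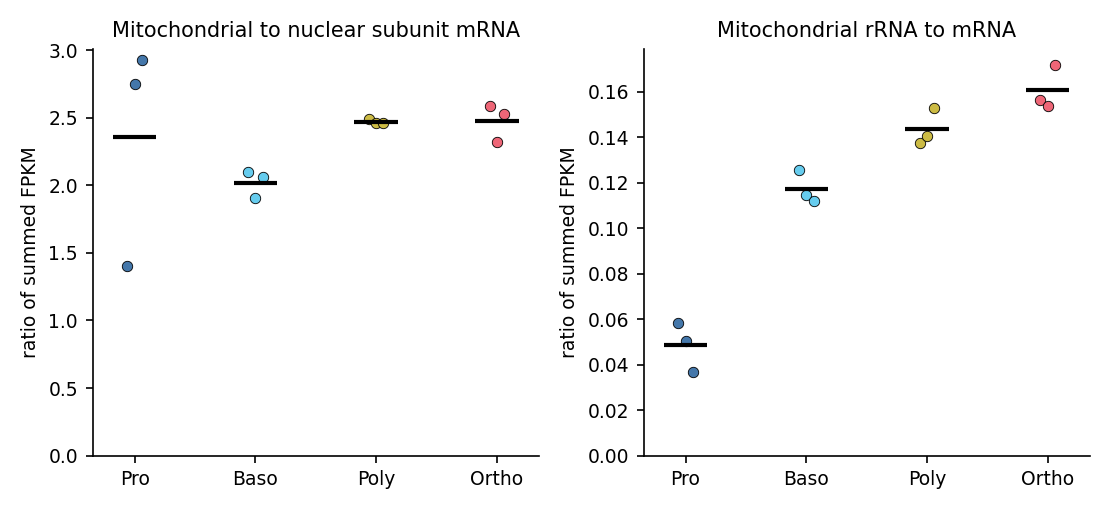
Ratio of summed FPKM in each library (points) with the mean of each stage (bars, n = 3 libraries), for mitochondrial mRNA over nuclear subunit genes and for mitochondrial rRNA over mitochondrial mRNA. The first ratio was 1.90 to 2.10 in Baso and 2.32 to 2.59 in Poly and Ortho, with Pro replicate 1 at 1.40, and the second rose from stage to stage.

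Among genes that work with the chain, counts from Pro to Ortho are read beside 53.2% of all genes that passed lower and 23.8% called lower. Of 7 mobile carriers and their partners, 6 passed and 5 were called lower with a median of -1.36. This list includes Cyc1 and Ndufab1, subunits that the name rule does not match. Cyc1, cytochrome c1 of complex III, went from 146 ± 15.1 FPKM (mean ± SD, n = 3) in Pro to 47.3 ± 0.330 in Ortho. Cycs, cytochrome c itself, went from 34.2 ± 2.35 to 19.6 ± 0.710. Etfb, which brings electrons from fatty acid oxidation, had values of 94.1 ± 17.8 and 80.3 ± 4.85 and did not pass (log2 fold change -0.21, adjusted p = 0.179 by limma). Among the assembly factors 44 of 46 were tested, 41 passed lower and 14 were called, or 31.8%, with a median of -0.86. Cox17, the copper chaperone of complex IV, had the lowest fold change at -1.71 and Tmem126a, a factor for complex I, the highest at -0.04.

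The genes for upkeep and expression of mitochondrial DNA were counted in the same way, beside 53.2% of all genes that passed lower from Pro to Ortho and 23.8% called. For upkeep and transcription, 12 of 16 genes passed lower, 5 were called and 4 did not pass, with a median of -0.71, and the share called, 31.2%, was close to that of all genes. Tfam, which packages the DNA and starts its transcription, went from 13.4 ± 0.703 to 5.57 ± 0.00370 FPKM (log2 fold change -1.13, adjusted p = 2.59e-07 by limma), and Polrmt, the mitochondrial RNA polymerase, from 9.99 ± 0.974 to 5.01 ± 0.201 (log2 fold change -0.87, adjusted p = 1.43e-05 by limma). All 16 genes for processing and stability of mitochondrial RNA passed lower and 9 were called, with a median of -1.06. Lrpprc, which stabilizes mitochondrial mRNAs, fell from 30.9 ± 5.40 to 16.9 ± 0.420 FPKM, and Rexo2, which degrades short RNA pieces, from 109 ± 13.7 to 31.2 ± 1.77. Of 78 mitochondrial ribosomal protein genes 76 passed lower and 56 were called, with a median of -1.21.

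Among 10 tested regulators of nuclear respiratory genes, 8 passed lower and 3 were called from Pro to Ortho, the latter near the 23.8% of all genes, while 53.2% of all genes passed lower. Nrf1 kept its level to Poly and then fell, with a mean of 27.8 ± 2.34 FPKM in Pro and 26.3 ± 0.975 in Baso, still 25.7 ± 2.48 in Poly, and 13.1 ± 2.58 in Ortho (log2 fold change -1.04, adjusted p = 1.44e-05 by limma from Pro to Ortho). At the step from Poly to Ortho, 6 of the 10 passed lower, against 21.7% of all genes, Nrf1 among them with a log2 fold change of -0.94. The GABP subunit genes Gabpa and Gabpb1 had log2 fold changes of -0.71 and -0.65, and Gabpb2 one of -1.28. The coactivator Ppargc1a was under 0.1 FPKM in all 12 libraries and Ppargc1b was under the filter as well, so neither was tested. For comparison, all 13 genes of the tricarboxylic acid cycle passed lower with 9 called and a median of -1.23, and of 85 cytosolic ribosomal protein genes 82 passed lower and 69 were called, with a median of -1.26. The nuclear respiratory genes, at -1.21, lay beside these lists.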

How the data were processed

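RNA-seq of sorted mouse bone marrow erythroblasts was analysed from the deposited table of FPKM per gene and library. Per the labels and the methods of the study, the authors trimmed reads with Cutadapt and Trimmomatic, aligned them to mm10 with HISAT2, handled them with SAMtools and counted them with featureCounts. The tool and annotation behind the FPKM, the strand setting and the versions are not given in the sources used here, and the sources name different library kits. No step of whole reads could be read from the low values, so depth is unknown. The members and gene lists were chosen with earlier results of these data known.

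Genes with at least 1 FPKM in at least 3 libraries were kept. limma 3.58.1 in R 4.3.3 was fitted to log2(FPKM + 1) over the 12 libraries with a variance trend, so fold changes are on that scale and understate low genes. Baso vs Pro, Poly vs Baso, Ortho vs Poly and Ortho vs Pro were tested with Benjamini-Hochberg adjustment, and a gene was called when its adjusted p was under 0.05 and its change on the log2 scale 1 or more in size. The fit was tested on simulated data. Named were the mitochondrial mRNAs and rRNAs, per nuclear complex the 2 highest and 2 lowest fold changes from Pro to Ortho and the most abundant gene, the Sdh genes, and subunits with isoforms. Atp5s, mt-Tg, mt-Te, mt-Tt and mt-Ts2 were named after their values were seen. Coordinates are from GENCODE M21 (mm10) and promoters from RefSeq. Deviations from the stage means correlated between same-numbered libraries at 0.16 to 0.32 within Baso, Poly and Ortho and at 0.01 to 0.10 for pairs with Pro. The numbers were therefore taken to pair the last 3 stages only. Differently numbered libraries were not compared in this way, so the pairing is an assumption. Alternatives covered the pseudocount, the filter, the scaling, the samples fitted, the replicate block and each library left out.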

Additional observations from a re-analysis of the deposited data

How the results depend on the processing

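Precision was limited by 3 libraries a stage and by the unknown depth. The number of members called lower from Pro to Baso, 24, was 13 with a pseudocount of 5, 56 with libraries scaled to the same sum, 7 scaled without hemoglobin genes, 8 scaled without hemoglobin and mitochondrial genes, 8 centred on the library median, and 20 to 37 with 1 library left out, the highest being without Pro replicate 1. From Pro to Ortho, 61 lower became 96, 12, 14 and 21 under those 4 scalings. The 1 called higher became 0 with a pseudocount of 5 or the same sum, 3 without hemoglobin genes, 2 under each of the remaining scalings, and 0 to 1 with 1 library left out. With the adjusted p as the only criterion the counts lower and higher were 96 and 2 from Pro to Baso, 13 and 1 from Baso to Poly, 12 and 1 from Poly to Ortho, and 99 and 3 from Pro to Ortho. From Baso to Poly, with none called, leaving out 1 library gave 0 to 1 lower. Calls lost under a rescaling follow from its construction, since it moves all genes of a library together. The share of all genes called was not counted under the alternative fits and scalings, so these counts have no background.

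The replicate block over all 12 libraries left 24 members called lower from Pro to Baso and 61 from Pro to Ortho. No call with the fold required changed in the 3 stages taken as paired. The fit of those 3 stages without the block was added after seeing the data.

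For the 43 named members, 941 of 989 alternative values kept their direction and their side of the threshold, 33 lost significance, 3 gained it and 12 changed sign. In many of these alternatives the fold change from Pro to Ortho could not move, only its adjusted p. Those were the other filters, no variance trend, the compared stages fitted alone, the replicate block, and any Baso or Poly library left out. Direction was thus fixed in advance there. The 12 that changed sign were log2 fold changes from Pro to Ortho. They are given here in the order scaled without hemoglobin genes, scaled without hemoglobin and mitochondrial genes, and centred on the median. Ndufb11 gave 0.0886 and 0.0657 in the former pair, Ndufa12 0.33, 0.30 and 0.25, Atp5g2 0.20, 0.18 and 0.11, and Atp5j 0.30, 0.28 and 0.21. With 1 library left out Ndufa12 ranged from -0.47 without Pro replicate 1 to 0.13 without Pro replicate 3. The ratio of mitochondrial to nuclear mRNA without the most abundant gene of each genome was 1.57 in Baso, against 1.92 in Poly and 1.96 in Ortho.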
